A study of Mus musculus with 12 samples.

Results

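The 36 genes described here encode complement proteins and blood clotting proteins of the plasma that hepatocytes make and secrete. They were listed by name, and the rule that picks them uses no measured value, out of 49997 genes with a position in the annotation. CTCF binding around them was read from chromatin immunoprecipitation and sequencing (ChIP-seq) of whole livers of male wild-type C57BL6/Ncrl mice, 3 to 4 months old and kept on normal chow. Fed mice ate freely and their livers were taken at ZT16 (zeitgeber time, hours after lights on). The other mice were starved for 24 h and their livers were taken at ZT13, so feeding and collection time differ together and cannot be told apart. Each state had 3 ChIP libraries, and the 6 input libraries were not analysed here. Nothing in the labels ties each library to its own mouse, and the spread behind the p-values is that between libraries, which may be technical. CTCF peaks do not measure transcription, so whether these livers expressed the genes was not checked.

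Complement is a cascade of plasma proteases and pore-forming proteins that marks and lyses microbes. It is started by antibody (classical pathway), by sugars (lectin pathway) or by itself (alternative pathway), and all routes meet at C3. Clotting is a second protease cascade that ends in thrombin and fibrin, held in check by anticoagulants and undone by plasmin. CTCF is a zinc finger protein that, with cohesin, anchors chromatin loops and insulates neighbouring genes from each other.

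Overlapping peaks of the 6 lists (1 bp or more) were joined to 1 site, and a library held the site if it had a peak in it. A gene's window is its annotated body plus 20 kb on each side. A fed site is one called in all 3 fed libraries, and a fed-only site is a fed site with no peak in any starved library. The windows held 197 of the 76061 sites of the series. The 6 lists held 49030 to 74950 peaks in the fed and 23926 to 30752 in the starved libraries, and the number of reads behind them is unknown. Strength is given as the percentile of a peak's score within its own list. A percentile orders sites within a library, and percentiles from lists of different length do not measure a change between libraries.

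CTCF peaks at the transcription starts of these genes were few and mostly weak. Promoters (250 bases before to 50 after a start, RefSeq, GRCm38.p6) were at hand for 27 of the 36 genes, 28 promoters in all. A fed site covered part of 2 of these 28, at F5 and Pros1, against 17.8% of all 32851 promoters, a difference that was not tested. The members' promoters had a median GC content of 48.3% and a median of 4.5 CpG pairs, against 52.7% and 7 over all promoters. Pros1, with 21 CpG pairs, had the most of the members, while F5 had 4. The promoters with a site over them are shown for the 4 genes, all of coagulation, where that site had the highest mean fed percentile. Counting any called site, 7 of the 28 promoters were reached, and the other 3, at Masp2, Mbl2 and Serpinf2, had no fed site. The share of all promoters reached by any called site is not given here, so the 7 cannot be set against it. The 250 bases before the start are printed 5′ to 3′ on the gene's strand, which is the plus strand for each, with the bases that lie inside the merged CTCF site in capitals.

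F5, factor V, chr1:164151585-164151834, a site of all 6 libraries:
F5: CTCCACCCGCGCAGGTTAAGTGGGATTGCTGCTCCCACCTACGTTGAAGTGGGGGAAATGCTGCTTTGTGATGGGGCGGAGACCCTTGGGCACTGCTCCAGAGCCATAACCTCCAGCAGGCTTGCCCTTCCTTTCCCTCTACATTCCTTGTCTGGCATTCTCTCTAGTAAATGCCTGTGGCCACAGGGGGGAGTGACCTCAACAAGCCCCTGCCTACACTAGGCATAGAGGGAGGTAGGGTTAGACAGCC
Pros1, protein S, chr16:62854057-62854306, a fed-only site:
Pros1: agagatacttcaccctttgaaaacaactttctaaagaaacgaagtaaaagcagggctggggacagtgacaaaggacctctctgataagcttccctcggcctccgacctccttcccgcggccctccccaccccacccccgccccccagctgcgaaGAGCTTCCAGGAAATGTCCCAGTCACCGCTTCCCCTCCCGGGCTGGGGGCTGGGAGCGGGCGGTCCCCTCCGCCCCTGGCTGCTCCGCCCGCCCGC
F7, factor VII, chr8:13025784-13026033, a site of fed 3 alone:
F7: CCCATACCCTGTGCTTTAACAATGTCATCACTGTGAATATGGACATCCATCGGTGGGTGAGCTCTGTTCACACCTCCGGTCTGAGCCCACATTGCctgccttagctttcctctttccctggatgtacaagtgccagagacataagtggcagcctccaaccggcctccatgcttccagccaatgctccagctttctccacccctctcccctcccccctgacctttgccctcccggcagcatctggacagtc
F9, factor IX, chrX:59999214-59999463, a site of fed 3 alone:
F9: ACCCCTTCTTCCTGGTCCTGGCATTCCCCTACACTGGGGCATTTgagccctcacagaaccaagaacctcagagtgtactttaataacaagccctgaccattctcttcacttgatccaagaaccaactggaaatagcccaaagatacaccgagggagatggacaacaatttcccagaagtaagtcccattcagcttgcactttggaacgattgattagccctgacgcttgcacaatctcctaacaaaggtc

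The capitals run through all 250 bases of F5, while in Pros1 the site begins at base 155 and continues past the start. In F7 and F9 the sites cover only the bases farthest from the start, 95 and 44 of them. The CTCF core consensus, searched on both strands with its variable positions left free, matched in none of the members' 28 promoters and in 797 of all 32851 (2.43%). With a share this low, 28 promoters are too few to show whether the members differ. Looser matches were not counted, and the parts of the F5 and Pros1 sites outside the promoters were not searched. Whether these sites hold a CTCF motif was therefore not tested. Of 76 fed sites that had such a start to be measured from, 4 had their midpoint within 1 kb of it, and 1 of these, at F5, was called in all 6 libraries. The median distance of the 76 was 12.8 kb. Neither value is given here for the fed sites of the genome.

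Instead, most sites lay inside or beyond the gene bodies. The windows held 103 fed sites, of which 36 lay inside the gene body, 4 over a gene end and 63 outside. Of the 103, 30 fell in the body of another protein-coding gene alone and 33 in no protein-coding gene. A window held 0 to 11 sites with a median of 5, against a median of 4 for 21887 protein-coding genes. Overlaps counted once, the members' windows held 83.7 sites per Mb and those of protein-coding genes 44.0, a difference that was not tested. These values pool all windows, so long genes weigh more in them, and the medians per window, 5 and 4, differed less. Members were longer, with a median body of 23.0 kb against 17.2 kb. A site of all 6 libraries was present in the windows of 29 of the 36 genes (80.6%), against 65.0% of protein-coding genes. Such sites stood on both sides of the gene body for 4 genes (11.1%, Mbl2, Vtn, Kng1 and Plg), against 13.9%. C6, which joins the membrane attack complex, had no site in any library across its body of 76979 bp and both flanks.

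**Figure D1:**
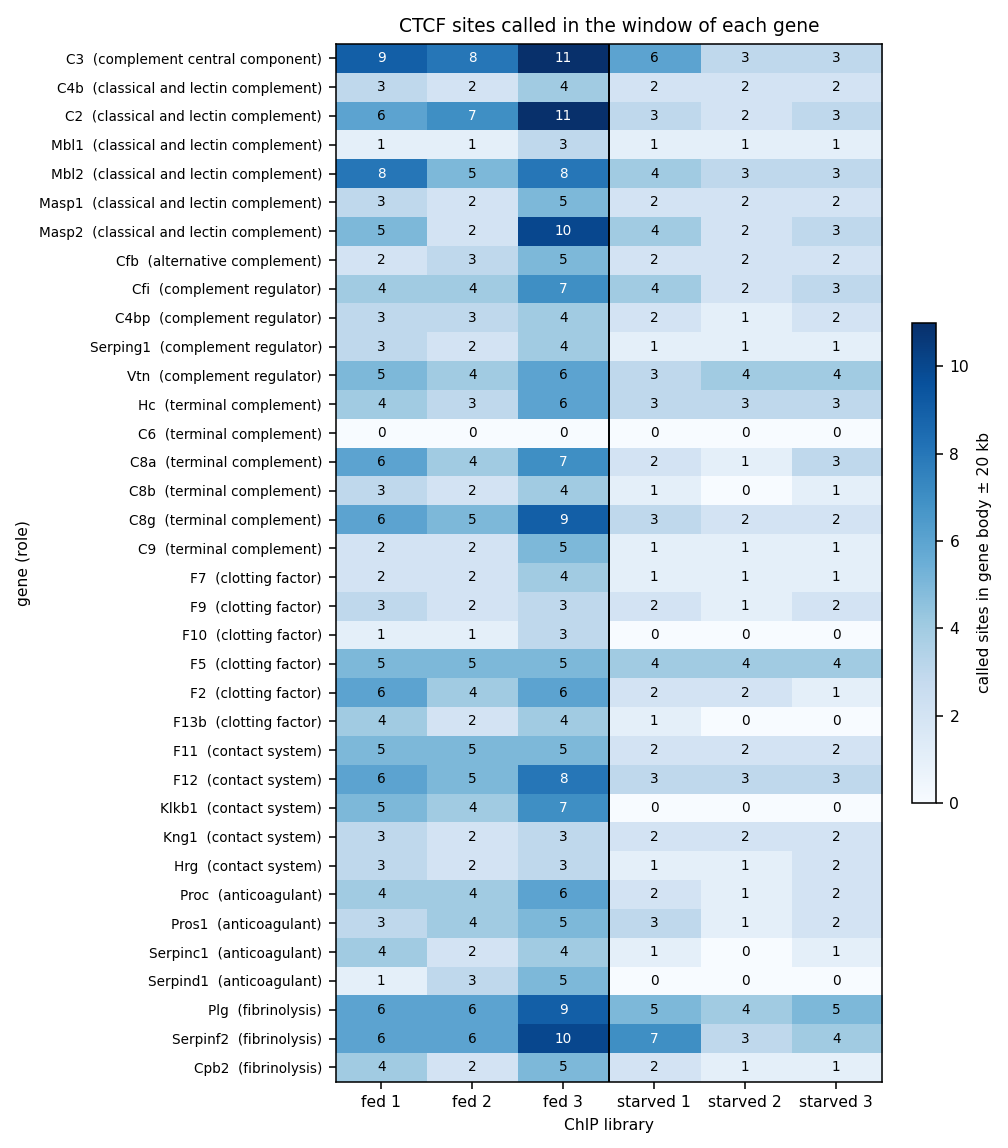
Number of CTCF sites called in each gene's window (rows, with the gene's role) in each ChIP library (columns); darker cells hold more sites. C3 and C2 reach 11 sites in fed 3, C6 has 0 in every library, and F10, Klkb1 and Serpind1 have 0 in all 3 starved libraries.

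The number of sites at these genes was lower in every starved library. The windows held 137, 112 and 191 called sites in fed 1, 2 and 3, and 79, 56 and 68 in starved 1, 2 and 3. The groups did not overlap, at 147 ± 40.4 fed and 67.7 ± 11.5 starved sites (SD, n = 3 each), a log2 ratio of −1.12. An exact permutation test, two-sided, gave p = 0.1, which is the lower limit for 3 against 3 libraries, so p under 0.05 was out of reach. As a share of all sites of the same library, the windows took 0.251, 0.236 and 0.258% in the fed and 0.266, 0.241 and 0.237% in the starved libraries, which overlap (exact permutation p = 1). With lists cut to equal length, 58, 55 and 57 fed and 61, 56 and 58 starved sites were called, and the groups overlapped.

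At least 1 site was called at 35 genes in each fed library and at 32, 29 and 31 genes in starved 1, 2 and 3 (exact permutation p = 0.1). With lists of equal length the mean was 29.3 genes in the fed and 30.7 in the starved libraries. The same count per library over all protein-coding genes is not given here, so the drop is not read as particular to these genes. All 3 starved libraries held 54 of the 103 fed sites (52.4%), against 49.3% of the 44909 fed sites of the genome. Another 11 were called in 2 and 10 in 1 starved library. The fed-only sites numbered 28 (27.2%), against 29.1% of all fed sites. Fed-only sites were spread over the windows of 21 genes (58.3%), against 47.1% of protein-coding genes. No site of these windows, and 0.0% of all sites, was called in all 3 starved and in no fed library. The members' shares lie near the genome's, and nothing particular to these genes is read from them. Without fed 2, the shortest fed list, there were 53 fed-only sites among 132 fed sites (40.2%). The genome's share without fed 2 is not given here, so the 40.2% cannot be set against the 29.1%.

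The fed rank of a site went with its presence after starvation. The median fed percentile was 31.2 for the 28 fed-only sites and 74.3 for the 75 with a starved peak. All 44 fed sites above a fed percentile of 70 appeared in each starved library, against 99.1% in the genome. Between 60 and 70, 11 of 11 were seen again in some starved library, between 40 and 60 it was 14 of 20, and up to 40 it was 6 of 28 (21.4%). The genome's shares were 98.6, 64.5 and 17.0%. The highest fed-only site lay inside C8a, at a mean fed percentile of 50.3.

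**Figure D2:**
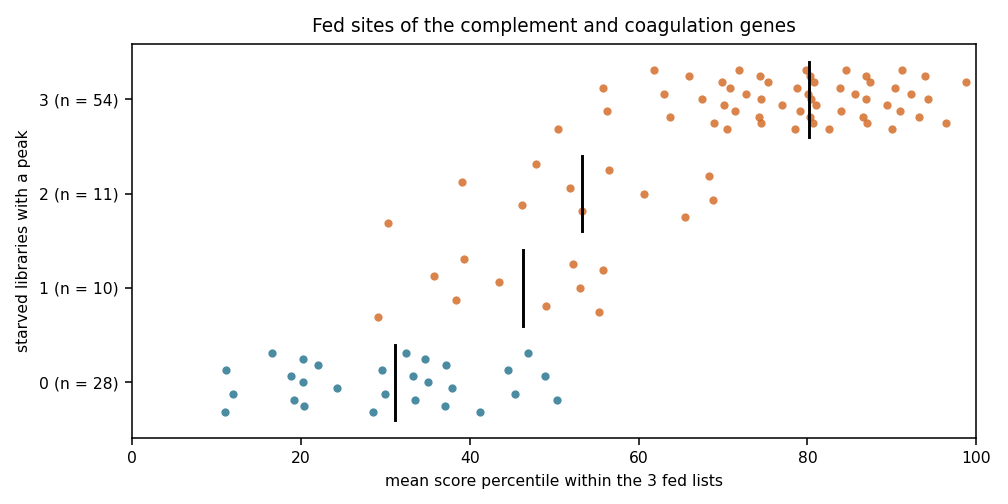
Each point is 1 of the 103 fed sites of the complement and coagulation genes, placed by its mean score percentile in the 3 fed lists (x axis) and by how many starved libraries held it (y axis, spread vertically for view); black bars are medians and blue marks fed-only sites. Fed-only sites end at a percentile of 50.3, while the sites of all 6 libraries begin at 50.4.

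Fed-only sites made up a larger share inside the gene bodies than outside them. Inside a member or over its end, 15 of 40 fed sites were fed-only (37.5%), and outside it was 13 of 63 (20.6%). Their median fed percentiles also differed, at 52.5 inside and 67.6 outside. Over the genome, fed sites in protein-coding gene bodies were fed-only in 30.5% and other fed sites in 27.2%, with median fed percentiles of 58.2 and 65.2. The genome's split is unlike the members', since 30 of the 63 sites outside a member fell in another protein-coding gene. The difference between inside and outside was not tested, since sites are not replicates.

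With lists of equal length (23926 peaks each), the windows had 53 fed sites, all with a starved peak, against 21446 of 21707 over the genome. Of these, 49 (92.5%) were called in all 3 starved lists, against 88.9% over the genome. The 4 others were 2 sites near Vtn and 1 each near Pros1 and Proc. Peaks were also wider in the fed libraries at the same sites. At the 54 sites of all 6 libraries the mean peak width was 711 ± 119 bp in fed and 360 ± 93.4 bp in starved libraries (SD, n = 3 each), and over all sites shared by the 6 libraries it was 715 ± 97.7 and 354 ± 86.2 bp. The part of library quality in the shorter starved lists was not tested.

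C3, the protein on which all complement pathways converge, had 11 sites (chromosome 17, gene body 57203967 to 57228136), of which 7 were fed sites. The strongest lay inside the gene, at 57218635 to 57220274, with percentiles of 89.9, 76.1 and 87.5 in fed 1 to 3 and 77.5, 71.0 and 82.8 in starved 1 to 3. It was the only site inside C3 found in all 6 libraries. Another pair of such sites lay beyond the C3 start, within Gpr108 and Trip10, at 57234491 to 57235275 and 57248054 to 57249702, the last at the promoter of Trip10. The 3 fed-only sites were inside C3 at 57209325 to 57209824 (percentiles 34.7, 25.5 and 53.6) and 57225465 to 57226049 (42.9, 17.2 and 51.1), and at the Gpr108 promoter at 57246632 to 57247578 (31.0, 17.0 and 49.3). C3 thus had its best-ranked sites in every library and weak ones in the fed lists alone. Other weak sites were also called in starved 1, at 57199459 to 57199761, 57229967 to 57230420 and 57235810 to 57236236 (13.2, 12.6 and 10.7).

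The genes that start the classical and lectin pathways had 17 fed sites in 6 windows, of which 12 were called in all 3 starved libraries and 2 were fed-only. Mbl2, a mannose-binding lectin that recognises microbial sugars, had the best-ranked of them, on chromosome 19 at 30217288 to 30217902, 15004 bp before the gene. Its percentiles were 97.6, 98.4 and 93.4 in the fed and 90.2, 98.7 and 96.9 in the starved libraries. On the other side of Mbl2 stood 2 sites of all 6 libraries (30246986 to 30247987 and 30248545 to 30249236), so the gene was flanked on both sides. Its fed-only site, at 30224990 to 30225404, had percentiles of 13.1, 7.8 and 35.8. Mbl1, the other lectin gene, had 1 fed site, inside the gene on chromosome 14 at 41162574 to 41163423, with 82.1, 89.1 and 89.8 in the fed and 72.2, 91.3 and 84.5 in the starved libraries.

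Masp1 and Masp2 encode the proteases that these lectins carry, and both had their best site inside the gene in all 6 libraries. For Masp1 it lay at 23452162 to 23453054 on chromosome 16 (mean fed percentile 87.4, mean starved 71.9), and for Masp2 at 148607602 to 148608408 on chromosome 4 (87.0 and 80.9). Neither gene had a fed-only site, though fed 3 alone added 2 sites at Masp1 and 5 at Masp2. C4b, a component cleaved by these proteases, had 2 fed sites on chromosome 17, both outside the gene and in all 6 libraries, the better at 34712827 to 34713656 within Tnxb (72.0 and 53.6).

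C2 and Cfb lie next to each other on chromosome 17 and encode the homologous proteases of the classical and alternative convertases. Their windows share 5 sites, of which 2 were fed sites and both were called in all 6 libraries. The better covered the end of Cfb and of its neighbour Nelfe, at 34855557 to 34856938, with percentiles of 75.0, 80.4 and 84.8 in the fed and 70.3, 73.0 and 49.7 in the starved libraries. No fed site lay between the 2 genes or inside C2. Beyond C2, a site at 34891418 to 34891831 was fed-only (42.1, 32.1 and 61.9), and sites at the promoters of Zbtb12 and Ehmt2 were each held by 1 starved library.

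The complement regulators had 13 fed sites, of which 7 were called in all 3 starved libraries and 3 were fed-only. Vtn, vitronectin, which binds the terminal complex, is a gene of 3206 bp with no fed site in its body. Its best site lay within Sarm1 on chromosome 11 at 78487843 to 78488909, with 92.6, 87.1 and 90.3 in the fed and 91.2, 56.6 and 90.4 in the starved libraries, so starved 2 stood below the others. C4bp, a cofactor in the breakdown of C4b, had its best site at 130633786 to 130634515 on chromosome 1 (83.9 and 66.6) and a fed-only site in the gene at 130659609 to 130659886 (3.7, 4.0 and 25.3). Cfi, the protease that degrades C3b and C4b, had its best site inside the gene on chromosome 3 at 129863513 to 129864255 (80.4 and 68.0). Its fed-only site lay 194 bp outside the gene body at 129836091 to 129836533, with percentiles of 12.5, 33.5 and 42.9. Serping1, which inhibits the first complement proteases and kallikrein, had its best site on chromosome 2 at 84758691 to 84759500 (80.3 and 68.4) and a fed-only site at 84779227 to 84779489 (35.0).

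The terminal complement genes, whose products build the membrane attack complex, had 14 fed sites, of which 7 were called in all 3 starved libraries and 4 were fed-only. Hc, which encodes C5, had 3 fed sites on chromosome 2, and all were in every library. The best lay inside the gene at 35048763 to 35049366, with 77.4, 96.2 and 97.4 in the fed and 94.4, 82.4 and 91.3 in the starved libraries, an overlapping spread. C8a and C8b, neighbours on chromosome 4 that encode 2 chains of C8, shared a site inside C8a at 104817590 to 104817970, called in all 3 fed and 2 starved libraries. C8b had no site of all 6 libraries, and its fed-only site lay at 104783959 to 104784230 (10.3, 13.4 and 12.2).

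C8a had its best site 17382 bp outside the gene in Fyb2, at 104893869 to 104894672 (91.2 and 81.3). Its fed-only site inside the gene, at 104832736 to 104833132, had percentiles of 45.6, 42.1 and 63.3. C8g, a short gene for the remaining C8 chain, had 9 sites on chromosome 2. The best of them, at 25482902 to 25483677, was in all 6 libraries (81.1 and 46.4), and 1 at 25478528 to 25478819 was fed-only (20.3). C9, which forms the pore, had its best site in Dab2 on chromosome 15 at 6435624 to 6436591 (80.7 and 60.8) and a fed-only site at 6500772 to 6501304 (41.2).

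The clotting factor genes had 14 fed sites, of which 7 were called in all 3 starved libraries and 4 were fed-only. F5, the cofactor with which factor X makes thrombin, had 5 sites, each in every fed library, and 4 of them in every starved library. Its strongest had the highest mean fed percentile of all the windows (98.8), within Selp on chromosome 1 at 164138343 to 164139666. The percentiles were 98.4, 98.2 and 99.8 in the fed and 90.9, 98.8 and 86.3 in the starved libraries, where the Mbl2 site at 30217288 had the higher mean (95.3 against 92.0). The site over the printed F5 promoter, at 164151528 to 164152157, was weaker, with 49.0, 41.1 and 61.1 in the fed and 47.5, 6.6 and 19.2 in the starved libraries. The fed-only site of F5 lay inside the gene at 164158353 to 164158706 (6.5, 3.4 and 39.7).

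F7 and F10 are adjacent on chromosome 8, and no fed site lay in or between them. F7, which starts clotting with tissue factor, had 1 fed site, within Mcf2l, 14796 bp away, at 13010063 to 13010710, with 83.1, 70.5 and 77.3 in the fed and 50.1, 55.1 and 33.8 in the starved libraries. F10, the factor that cuts prothrombin, had 0 fed sites, and its 3 weak sites were all shared with the window of F7. F2, prothrombin, had its best site in Zfp408 on chromosome 2 at 91646484 to 91647319 (82.5 and 62.4). Its fed-only sites lay within Ckap5 at 91609430 to 91609713 (34.8) and, where Ckap5 overlaps F2, inside both genes at 91617979 to 91618296 (20.3).

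F9, the only member on chromosome X, had its best site inside the gene at 60013083 to 60013581, with 69.2, 72.6 and 81.8 in the fed and 50.9, 53.3 and 51.8 in the starved libraries. F13b, the carrier subunit of factor XIII, had no site of all 6 libraries. Its site 149 bp before the gene body, at 139501063 to 139501398 on chromosome 1, was called in 3 fed and 1 starved library, and 1 in Aspm at 139488515 to 139488890 was fed-only (28.0, 28.1 and 33.9).

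F11 and Klkb1, neighbouring contact system genes on chromosome 8 that encode the homologous proteases factor XI and prekallikrein, shared 3 fed-only sites. The 5 contact system genes had 15 fed sites, of which 8 were called in all 3 starved libraries and 6 were fed-only. F11 had 5 fed sites, and the 2 beyond its far end were in all 6 libraries. The stronger, at 45236225 to 45237368, had percentiles of 80.6, 72.3 and 88.3 in the fed and 56.1, 52.8 and 52.0 in the starved libraries, and the other, at 45237969 to 45238867, had 60.9, 64.4 and 72.6 and then 53.1, 14.3 and 47.7. Klkb1 had 5, 4 and 7 sites called in fed 1, 2 and 3 and 0 in each starved library. Its 4 fed sites were all fed-only: 45250186 to 45250478 (47.6, 36.3 and 56.8) and 45258946 to 45259292 (28.1, 29.8 and 41.9) inside F11, 45281600 to 45281961 inside Klkb1 (42.6, 41.9 and 62.2), and 45313254 to 45313512 in Cyp4v3 (7.4, 9.3 and 43.9). None of the 4 had a mean fed percentile above 50.

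F12, which starts the contact system, had 3 sites of all 6 libraries on chromosome 13. One in Slc34a1 at 55405127 to 55406196 had 90.0, 98.3 and 91.2 in the fed and 94.7, 91.3 and 94.4 in the starved libraries, and the groups overlapped. Another covered the far end of F12, at 55417756 to 55418811, with 93.1, 92.8 and 97.0 and then 82.6, 78.2 and 82.0. Fed-only sites lay inside F12 at 55425166 to 55425475 (11.2) and at the Grk6 promoter at 55445302 to 55446128 (22.0). Kng1, the kininogen that releases bradykinin, was flanked on chromosome 16 by sites of all 6 libraries at 23046068 to 23046838 (74.4 and 58.4) and 23087546 to 23088955 (70.1 and 47.3), with no fed site inside. Hrg, histidine-rich glycoprotein, had its best site inside the gene at 22953095 to 22953801 (79.1 and 52.2), and neither gene had a fed-only site.

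The anticoagulant genes had 10 fed sites, of which 2 were called in all 3 starved libraries and 5 were fed-only. These counts are small, and their difference from the other roles was not tested. Pros1, the cofactor of protein C, had its best site beyond the gene on chromosome 16 at 62940378 to 62941135, with 97.5, 87.4 and 92.0 in the fed and 85.4, 85.6 and 84.3 in the starved libraries. Its promoter site, at 62854211 to 62854668, was fed-only, at 15.7, 0.6 and 41.2. Proc, protein C itself, had a site of all 6 libraries inside the gene on chromosome 18 at 32133742 to 32134220, and fed-only sites at 32117119 to 32117496 (24.3) and 32145187 to 32145630 (44.5).

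Serpinc1, antithrombin, and Serpind1, heparin cofactor II, had no site of all 6 libraries. The best of Serpinc1, inside the gene on chromosome 1 at 160989065 to 160989875, had 59.1, 48.1 and 62.3 in the fed libraries, 34.8 and 43.4 in starved 1 and 3, and no peak in starved 2. Its fed-only site lay at 160981574 to 160981955 (28.6). The only fed site of Serpind1, inside the gene and the overlapping Pi4ka on chromosome 16 at 17333648 to 17334047, was fed-only (29.7, 32.7 and 49.1), and no site of its window was called in any starved library.

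The fibrinolysis genes had 13 fed sites, of which 8 were called in all 3 starved libraries and 1 was fed-only. Plg, plasminogen, had 4 sites of all 6 libraries on chromosome 17. The strongest lay outside the gene at 12371189 to 12372759, with 83.1, 94.6 and 95.0 in the fed and 82.1, 75.8 and 86.0 in the starved libraries. The others lay on the same side at 12367163 to 12368098 (75.3 and 40.7), inside at 12415892 to 12416895 (84.0 and 71.9) and on the other side in Slc22a3 at 12421004 to 12421698 (78.6 and 49.7). The fed-only site of Plg was inside the gene at 12403491 to 12403932 (24.4, 21.5 and 54.7). Serpinf2, the plasmin inhibitor, had its best site in no protein-coding gene, on chromosome 11 at 75457932 to 75458829, with 93.4, 95.0 and 93.3 in the fed and 81.7, 67.9 and 81.0 in the starved libraries. Cpb2, a carboxypeptidase that slows clot breakdown, had its best site in Lcp1 on chromosome 14 at 75229493 to 75230367 (85.6 and 61.4).

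**Figure D3:**
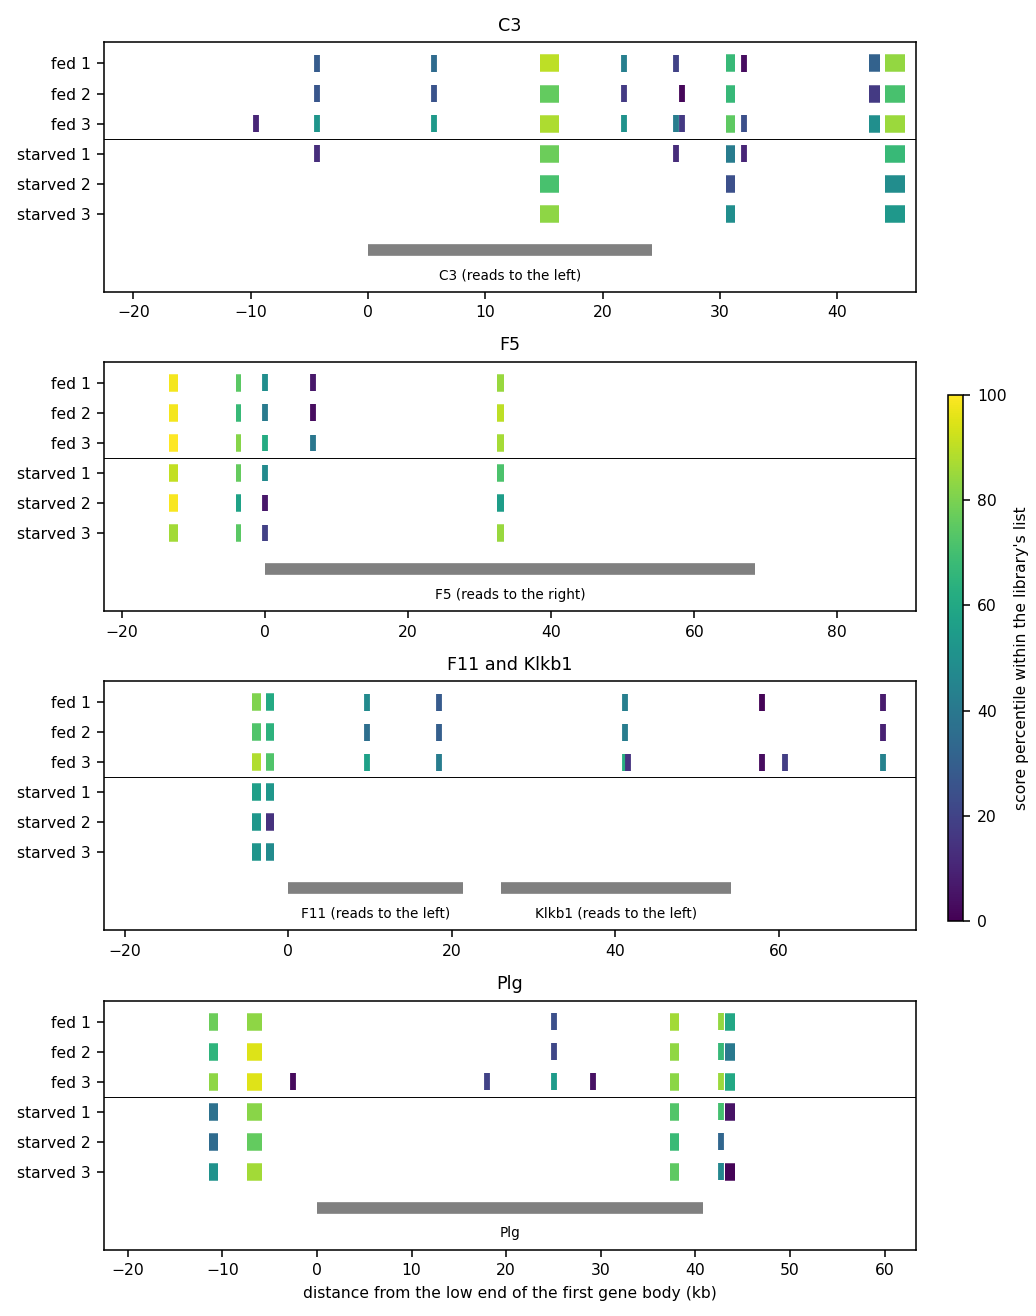
Merged CTCF sites (bars, coloured by score percentile within the library's list) in the windows of C3, F5, F11 with Klkb1, and Plg, by distance from the low end of the first gene body in kb; rows are libraries, grey bars are gene bodies, and sites of 0.7 kb or less are drawn at a fixed width. In the F11 and Klkb1 panel the starved rows hold only the 2 sites beyond the far end of F11.

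Whether the order of the sites differed between states was tested on the 22131 sites called in all 6 libraries, ranked among themselves in each library so that all libraries rank the same sites. The 54 sites of these genes had median percentiles on this scale of 48.2, 41.4 and 49.0 in the fed and 53.7, 50.1 and 47.1 in the starved libraries, a difference of 4.14 points (exact permutation p = 0.3). Without starved 1 the difference was 1.25, and without starved 2 it was −1.40. By limma on the normal scores of these ranks, with Benjamini-Hochberg adjustment over all 22131 sites, 0 of the 54 sites passed an adjusted p of 0.05 in either direction. Over the genome 0.0226% passed as lower and 0.127% as higher after starvation. At an unadjusted p under 0.05 it was 5 of the 54 (9.26%), against 10.8% of all. The median limma difference was 0.15 over the 54, in units of the normal scores, and −0.0027 over all sites.

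The 5 were all ranked higher after starvation, and entering the fit required a peak in every library. They were picked by their unadjusted p, and how the genome's sites under this limit divide by direction is not given here. Their common direction is therefore not read as particular to these genes. The F5 promoter site stood at 0.9, 1.0 and 0.7 in the fed and at 28.8, 4.9 and 4.8 in the starved libraries on the scale of shared sites (difference 1.09 ± 0.32 SE, limma adjusted p = 0.177). The F5 site 3424 bp before the gene, in Selp at 164147710 to 164148411, stood at 35.95, 28.7 and 38.3 in the fed and at 67.7, 54.9 and 65.9 in the starved libraries (0.74 ± 0.29, limma adjusted p = 0.341). The site inside Proc stood at 6.8, 12.6 and 12.8 and then at 46.0, 27.5 and 32.2 (0.87 ± 0.30, limma adjusted p = 0.262). The weaker Masp1 site, at 23437803 to 23438161, stood at 4.0, 1.4 and 5.4 and then at 9.4, 27.6 and 25.0 (0.99 ± 0.31, limma adjusted p = 0.213). The C2 and Cfb site at 34850219 to 34850695 stood at 0.6, 6.4 and 4.0 and then at 7.6, 14.9 and 12.7 (0.73 ± 0.31, limma adjusted p = 0.401). The starved libraries lay above the fed ones at each of these sites, but no difference passed the adjusted test. Apart from the F5 site in Selp, the fed ranks of these sites were at most 12.8. Ranks so near the low end of the scale had more room to rise than to fall.

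At the other end, the limma difference was lowest at the strongest F5 site, at 164138343 (−0.54 ± 0.34, adjusted p = 0.597), the Mbl2 site at 30246986 (−0.43 ± 0.34, adjusted p = 0.688, and −0.0082 without fed 2) and the C8g site at 25482902 (−0.42 ± 0.29, adjusted p = 0.645). Of the 54 sites, all 3 starved ranks lay below all 3 fed ranks at 3 (7.37% over the genome) and above them at 8 (8.51%). The 3 were the sites at C8g, at the far end of F12 and at 75457932 near Serpinf2. The 8 included, beside the 5 above, the best sites of Serping1 and Masp2 and the Kng1 site at 23046068. These counts and their direction were not tested.

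**Figure D4:**
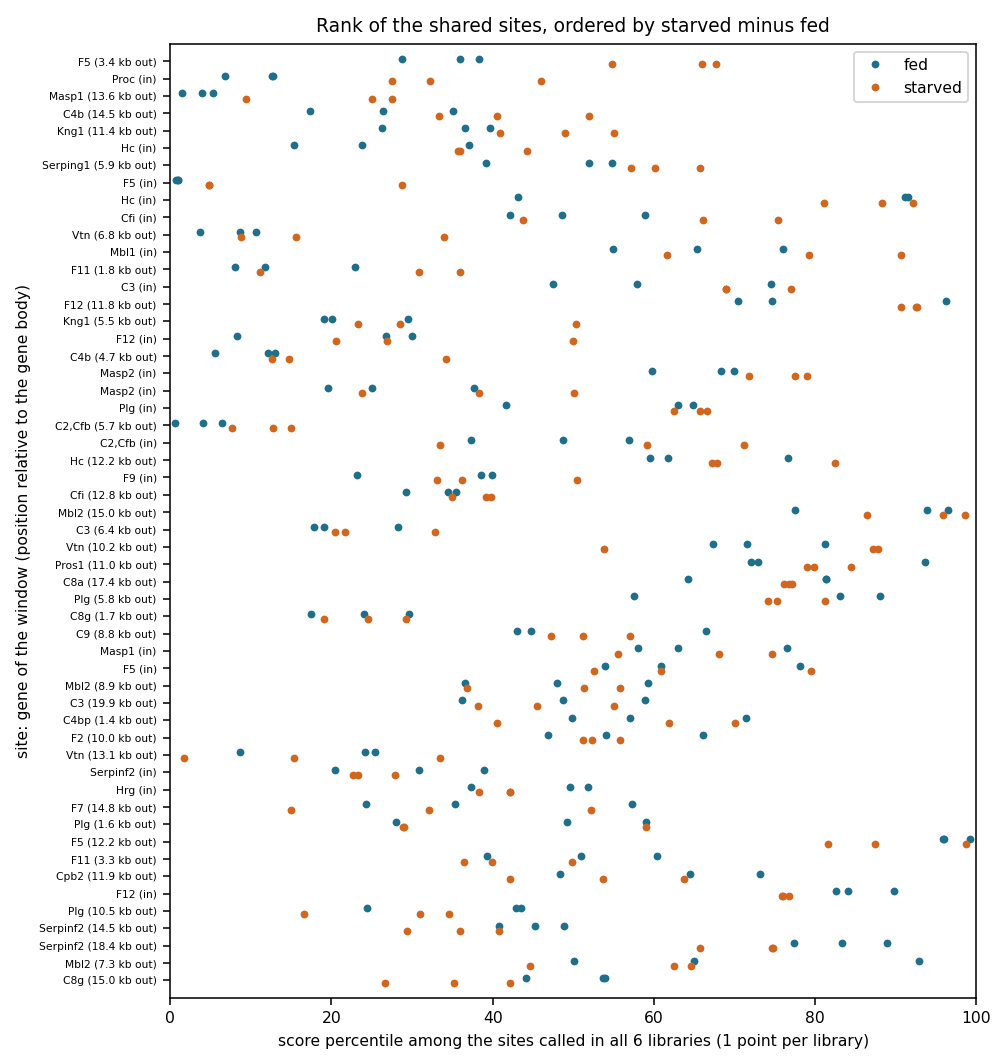
Score percentile among the sites called in all 6 libraries (x axis) for each of the 54 such sites of the complement and coagulation genes (rows, ordered by the mean starved minus the mean fed percentile), 1 point per library, fed in blue and starved in orange. The groups are apart at the top, as at the F5 site 3424 bp out, and at C8g at the bottom, and overlap in most rows.

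Other genes of the same pathways, from a separate list of receptors, C1 and lectin genes, fibrinogen and clot genes, and anticoagulant and fibrinolysis genes made in part by other cells, were counted in the same way. The windows of these 45 genes held 91 fed sites, of which 51 were called in all 6 libraries. Fed-only sites numbered 25 (27.5%, against 29.1% of all fed sites) and were present at 21 of the 45 genes, against 47.1% of protein-coding genes. No site was called in all 3 starved and no fed library. A site of all 6 libraries was present at 34 of the 45 genes, against 65.0% of protein-coding genes, and Vsig4, Itgax and Plau had 0 sites. Of the genes for the 3 chains of the C1q recognition molecule, C1qb had 4 fed-only sites among 5 fed sites, and C1qa and C1qc had 3 among 5 each. Their windows overlap, so a site can be counted under more than 1 of them. Tfpi, the inhibitor of the tissue factor pathway, had 4 fed sites, all in every library.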

How the data were processed

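CTCF ChIP-seq peak lists of 3 fed and 3 starved liver libraries were analysed, 1 list per library, grouped by sample title. The submitters' processing notes name the mm10 build and, without saying what each did, MACS2, HOMER, bedtools 2.17, SAMtools, FastQC and BWA 0.7.5a. The score in the deposited lists is the authors' own value per peak; how it is defined, whether inputs were used and how many reads were mapped is not stated there or in the labels, so no interval from reads can be given. List length depends on depth and enrichment as well as on binding.

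Peaks were merged across lists (1 bp overlap), coordinates are counted from 1, and gene bodies and promoters came from RefSeq, GRCm38.p6, the same build; all 36 genes matched by symbol. A site with several peaks in a library took the highest score. Library values were compared by two-sided exact permutation. Ranks among the 22131 shared sites were compared across the genome with limma 3.58.1 (R 4.3.3) on inverse-normal scores. Merging, windows and the limma fit were tested on simulated data. Calculations ran in Python 3.11.15 with numpy 2.4.6 and pandas 2.3.3, and figures in matplotlib 3.10.9.

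Named were the best site of each gene, all fed-only sites, the extremes of the rank comparison, sites in 2 windows and sites over promoters. The rule for the members uses gene names only, but they and the other lists were chosen with earlier results of these data known. Alternatives were a score limit (the median over all lists), equal list length, trimming peaks to 200 bp, merging them across gaps of 500 bp, windows of 5 and 50 kb, at least 2 of 3 libraries, other rank scales, a replicate block, and each library left out. The promoters of 9 genes were not used here.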

Additional observations from a re-analysis of the deposited data

How the results depend on the processing

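The log2 ratio of called sites, −1.12, was −0.88 to −1.28 when 1 library was left out and 0.0418 with lists of equal length. The difference in genes with a site, −4.33, was −5 to −3.5 without 1 library, −12.3 with the 5 kb window, −6.33 at the score limit, −1.67 with the 50 kb window and 1.33 with lists of equal length, where every library has the same number of peaks by construction. The share of a library's sites differed by −0.0001 percentage points, and by 0.022 at the score limit, 0.0115 with equal lists, 0.003 with trimmed peaks, 0.0007 with merging within 500 bp and 0.026 with a 50 kb window, by −0.0258 with a 5 kb window, or −0.0091 to 0.0055 without 1 library, so it had no stable sign; the cause was not tested. The 28 fed-only sites of 103 fed sites (27.2%) became 12 of 57 (21.05%) at the score limit and 0 of 53 with equal lists. They were 19 of 57 (33.3%) with a 5 kb window, 46 of 180 (25.6%) with a 50 kb window, and 28 to 53 without 1 library. The setting of at least 2 of 3 libraries counted another class, sites called in at least 2 fed and at most 1 starved library. It held 75 of 141 sites (53.2%). Apart from equal lists, the genome's shares at these settings are not given here. The median rank difference of 4.14 was −19.4 with percentiles of the whole lists, which differ in length, 8.18 at the score limit, 1.96 with the 50 kb window and −1.40 to 5.52 without 1 library. The limma fit was repeated with quantile-normalized log2 scores, trimmed peaks, the block and each library left out, and none of these called any of the members' sites (lowest adjusted p from 0.113 to 0.349), and the 6 sites with the most extreme differences kept their direction in these fits, though the Mbl2 site at 30246986 went from −0.43 to −0.0082 without fed 2. Over the genome, limma without 1 library called 0 to 11 sites lower and 5 to 25 higher. Same-numbered libraries did not deviate together (correlations −0.02 to 0.01), and neither did the other pairs (−0.03 to 0.02). With 3 libraries per state this cannot show whether the numbers pair them. With the replicate block the log2 ratio was −1.12 (exact sign-flip p = 0.25, the smallest that 3 pairs allow), and limma called 0 of the 54 sites and 31 lower and 70 higher over the genome, against 5 and 28 without it. Depth is unknown, so a weak site missing from a starved list is not shown to be unbound.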

Other observations

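Of the sites of the windows that were not fed sites, 86 were called in 1 or 2 fed and no starved library. Fed 3 alone held 49 of the 197 sites (24.9%, against 24.7% over the genome). Fed 1 alone held 5 (2.54%, against 1.74%) and fed 2 alone 0 (against 0.489%). The only site with a starved and no fed peak lay near Cfi on chromosome 3 at 129830856 to 129831078, in starved 1, at a percentile of 2.63. Sites called in 1 or 2 fed and at least 1 starved library numbered 7 (3.55% of the members' sites, against 0.811% over the genome). They were 2 near C3 (57229967 to 57230420 and 57235810 to 57236236), 2 near Masp2 (148591081 to 148591408 and inside the gene at 148601707 to 148602207), 1 before Pros1 (62852884 to 62853235), and 2 at Serpinf2 (75422324 to 75422671 and, reaching its promoter, 75439230 to 75439497). Each was called in starved 1, and the Masp2 site inside the gene also in starved 3. These were chosen after their values were seen, and the difference in share was not tested.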
